A study of Mus musculus with 9 samples.

Results

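The report concerns 42 mouse genes of the mitotic cell cycle, 18 that act around DNA replication (S genes) and 24 that act in G2 and mitosis (G2M genes). They were chosen by symbol, as textbook markers of the corresponding phases. All 42 were listed in each of the 9 deposited digital expression tables, which together named 33274 genes, 12580 of them in every table.

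A cell that enters the cycle switches on the replication genes at the G1 to S transition, largely through release of E2F factors from the retinoblastoma proteins. Genes needed for spindle assembly, chromosome condensation and division follow in G2 and are switched off as the cell leaves mitosis. In the adult brain few cells divide: neuroblasts and their progenitors, oligodendrocyte precursor cells (OPCs) and, on demand, microglia are the usual exceptions, whereas endothelial cells and astrocytes rest unless the tissue is injured or grows new vessels.

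Single cells were profiled by Drop-seq, a droplet method that counts 3' transcript ends by unique molecular identifiers (UMIs). The host was the nude mouse throughout, an immunodeficient strain that lacks mature T cells but keeps B cells and natural killer cells. The groups were a normal nude brain (Nu-NB, 1 sample), untreated patient-derived orthotopic xenografts (PDOXs) in which human glioblastoma grew in the mouse brain and of which the mouse cells were kept (7 samples, named P3, P8, P13, T16, T101, T192 and T233), and a P3 PDOX treated with temozolomide (TMZ), an alkylating drug used against glioblastoma (P3 TMZ, 1 sample). Each sample was a single PDOX model or brain, T192 and T233 carried tumours of the same patient, and mouse age was not given in the sources used here. Cells of P8 and Nu-NB were separated by fluorescence-activated sorting (FACS) and those of the other PDOXs by magnetic separation (MACS), so the sort and the comparison with Nu-NB overlapped in part.

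After quality filters 14626 cells were kept, 722 to 2771 per sample. On the 12580 genes shared by all tables they held 21794869 UMIs, of which 13596 were of S genes and 35699 of G2M genes. Median depth ran from 406.5 UMIs per cell in P3 to 1154 in P13. The number of cells called for a phase therefore depends on depth. Every share of cells below was taken after thinning each cell to 500 UMIs, which left 9382 cells and dropped 5244 shallower ones. The loss was uneven, with 80 of 2771 cells dropped in P13, 855 of 1775 in Nu-NB, 467 of 778 in P3 and 907 of 1499 in T101. The shares thus describe the deeper cells of each sample, and the part of this loss in them was not tested. Of 36 pairs of libraries 8 shared a cell barcode, with at most 2 barcodes in a pair. Pseudogene symbols took 0.217% of the UMIs in Nu-NB and 0.244% in P8 but 6.41% to 16.1% in the 7 MACS-sorted samples, and 1702 cells of those samples formed clusters whose UMIs were rich in pseudogenes (pseudogene-led clusters). No cell of Nu-NB or P8 fell in them, and levels, shares and detection are given with and without them.

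The promoters of members of each group are shown because S and G2M genes are classically read out through different short motifs. In the 250 bases before the transcription start (RefSeq, GRCm38.p6), windows were found for 34 of the 42 members. Members were counted by gene, and a match in any window of the gene counted. The rate over all windows was taken window by window, so the units differ for genes with several windows. An E2F word on either strand (TTCCCGC, the variant TTGGCGC, the variant TTCGCGC or the variant TTGCCGC) occurred in 8 of 14 S members (57.1%) and in 3 of 20 G2M members (15%), against 7.89% of all 32851 windows. The word of the cell cycle homology region (CHR, TTTGAA, either strand) occurred in 7 of 20 G2M members (35%) and in 1 of 14 S members (7.14%), against 15.99% of all windows. A CCAAT word occurred in 9 of 14 S members (64.3%) and 17 of 20 G2M members (85%), against 33.8% of all. The 3 most abundant S members with an E2F word were Rrm1 (chr7:102441445-102441694, plus strand), Mcm7 (chr5:138171884-138172133, minus strand) and Mcm6 (chr1:128359706-128359955, minus strand), and the 3 most abundant G2M members with a CHR word were Top2a (chr11:99024190-99024439, minus strand), Mki67 (chr7:135716380-135716629, minus strand) and Hmgb2 (chr8:57511593-57511842, plus strand). Each window ends at the base before the annotated start and lies outside the gene's own transcript. Capitals mark the E2F word in the S members and the CHR word in the G2M members; in Mcm6 the words TTGGCGC and TTCGCGC overlap on opposite strands, so its 4 matches form a pair of runs.
Rrm1: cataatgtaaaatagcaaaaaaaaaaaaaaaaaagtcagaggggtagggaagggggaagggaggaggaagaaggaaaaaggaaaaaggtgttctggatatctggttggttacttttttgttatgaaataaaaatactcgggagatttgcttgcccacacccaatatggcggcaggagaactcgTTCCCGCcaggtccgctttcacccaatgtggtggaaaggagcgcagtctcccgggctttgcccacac
Mcm7: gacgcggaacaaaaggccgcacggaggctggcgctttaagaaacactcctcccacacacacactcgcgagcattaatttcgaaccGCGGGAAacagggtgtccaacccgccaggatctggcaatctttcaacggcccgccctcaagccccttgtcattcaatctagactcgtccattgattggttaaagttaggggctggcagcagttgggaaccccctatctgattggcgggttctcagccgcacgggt
Mcm6: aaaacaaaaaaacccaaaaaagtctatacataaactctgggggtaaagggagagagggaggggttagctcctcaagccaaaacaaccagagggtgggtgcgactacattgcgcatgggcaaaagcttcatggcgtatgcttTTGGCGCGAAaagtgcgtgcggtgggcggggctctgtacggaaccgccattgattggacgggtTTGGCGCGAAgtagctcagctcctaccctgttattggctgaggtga
Top2a: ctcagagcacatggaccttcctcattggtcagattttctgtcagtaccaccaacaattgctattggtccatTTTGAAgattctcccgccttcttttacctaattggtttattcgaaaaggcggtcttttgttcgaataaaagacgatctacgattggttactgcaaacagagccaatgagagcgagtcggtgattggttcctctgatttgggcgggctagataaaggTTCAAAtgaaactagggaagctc
Mki67: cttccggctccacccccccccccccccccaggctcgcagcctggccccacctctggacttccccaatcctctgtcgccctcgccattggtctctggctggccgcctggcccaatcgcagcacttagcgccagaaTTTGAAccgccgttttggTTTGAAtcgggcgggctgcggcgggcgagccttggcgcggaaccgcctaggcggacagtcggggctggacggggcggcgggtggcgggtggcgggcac
Hmgb2: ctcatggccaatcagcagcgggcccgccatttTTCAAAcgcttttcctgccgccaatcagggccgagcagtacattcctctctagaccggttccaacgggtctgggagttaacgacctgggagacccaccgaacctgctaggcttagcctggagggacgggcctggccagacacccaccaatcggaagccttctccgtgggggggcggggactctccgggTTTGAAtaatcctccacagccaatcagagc
The matches describe these letters and not binding.

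The S members were present at low levels in every sample. Levels are given in CPM, the UMIs of a gene per 1000000 UMIs of the shared genes, summed over all kept cells. Pcna, the sliding clamp of the replication polymerases, was the most abundant S member. It stood at 56.0 CPM in Nu-NB, at 87.5 (lowest), 100.4 (median) and 144 (highest, P13) in the 7 PDOXs and at 154 in P3 TMZ. All 7 PDOXs lay above Nu-NB. Rfc2, a subunit of the complex that loads this clamp, had 25.9 CPM in Nu-NB against 30.02, 62.5 and 67.5 (lowest, median, highest) in the PDOXs and 65.8 in P3 TMZ. Tyms, which makes thymidylate for DNA, had 16.4 CPM in Nu-NB against 23.1, 33.4 and 89.1 in the PDOXs and 78.6 in P3 TMZ. Mcm3, a subunit of the replicative helicase, had 25.0 CPM in Nu-NB against 25.9, 45.6 and 69.7 in the PDOXs and 45.7 in P3 TMZ. For these 3 genes too no PDOX was at or below Nu-NB, although P8, lowest for Rfc2 and Mcm3, lay close to it. Rrm1, the large subunit of ribonucleotide reductase, had 31.0 CPM in Nu-NB against 25.2, 37.0 and 81.0 in the PDOXs and 43.0 in P3 TMZ, so the groups overlapped, with T233 below Nu-NB; without neuroblast-like cells all 7 PDOXs were above it. The remaining S members had PDOX means from 4.84 CPM (Chaf1b, a chromatin assembly factor) to 41.6 CPM (Tipin, of the fork protection complex).

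**Figure D1:**
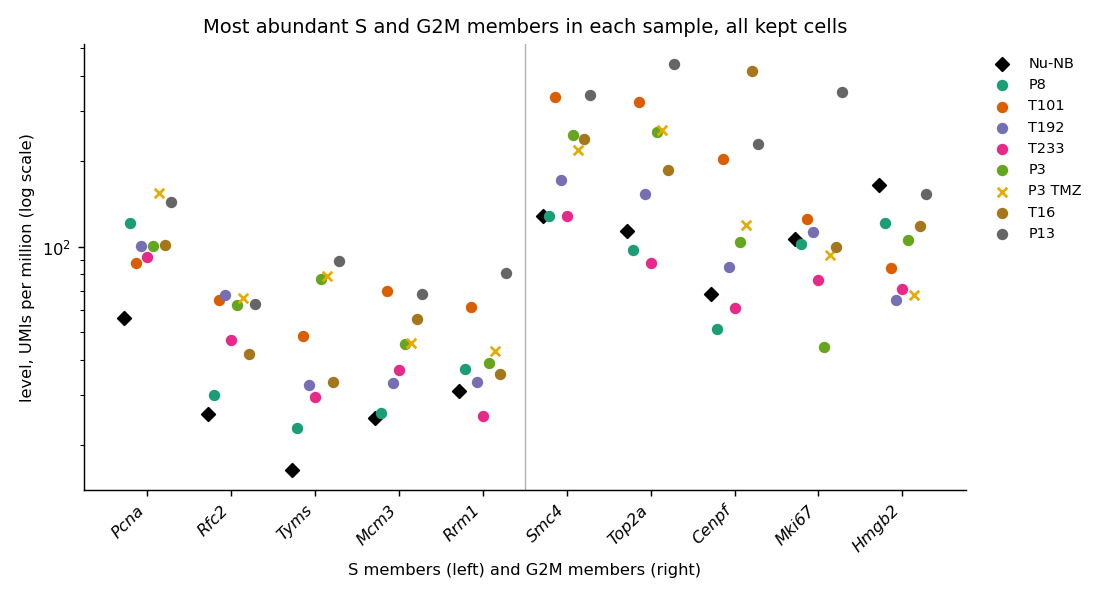
Level of the 5 S and 5 G2M members of highest mean, in CPM on a log axis, 1 point per sample over all kept cells. Nu-NB (black diamond) lies lowest for Pcna, Rfc2, Tyms and Mcm3 and highest for Hmgb2, and the T16 point for Cenpf and the P13 point for Mki67 lie above the other samples. Pseudogene-led clusters are included; without them Cenpf in T16 is 123 CPM, below P13 at 221 CPM.

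The G2M members were more abundant and spread more widely between PDOXs. Smc4, a condensin subunit that compacts chromosomes, had 128.4 CPM in Nu-NB, 128.0, 240.1 and 341 (lowest, median, highest) in the PDOXs and 218 in P3 TMZ. Top2a, the topoisomerase that untangles sister chromatids, had 114 CPM in Nu-NB, 87.8, 186 and 439 in the PDOXs and 257 in P3 TMZ. Both ranges reached below Nu-NB, and neither did once neuroblast-like cells, 30 of the 1775 kept cells of Nu-NB, were left out. Cenpf, a kinetochore protein, had 68.1 CPM in Nu-NB, 51.2, 104 and 415 in the PDOXs and 119 in P3 TMZ, with the highest value in T16. Of its Cenpf UMIs 72.2% lay in the pseudogene-led clusters, and without these T16 stood at 123 CPM, below P13 at 221 CPM. Mki67, which coats mitotic chromosomes and is the antigen of the Ki-67 proliferation stain, had 107 CPM in Nu-NB, 44.3, 102 and 351 in the PDOXs and 93.2 in P3 TMZ; 3 of 7 PDOXs were above Nu-NB. Hmgb2, a chromatin protein of the high mobility group, ran the other way: 165 CPM in Nu-NB against 64.7, 105 and 153 in the PDOXs and 67.6 in P3 TMZ, with all 7 PDOXs below Nu-NB, which no longer held once neuroblast-like cells were left out. The other G2M members had PDOX means from 6.67 CPM (Bub1b, of the spindle checkpoint) to 80.7 CPM (Cenpe, a kinetochore motor).

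Without the pseudogene-led clusters Pcna, Rfc2 and Tyms were still above Nu-NB in all 7 PDOXs, with medians of 101.5, 53.1 and 31.2 CPM. Mcm3 was above it in 6 of 7, P3 lying below at 19.2 CPM, and Rrm1 in 5 of 7. Among the G2M members Top2a then ran over 73.0, 134 and 421 CPM (lowest, median, highest), Cenpf over 32.4, 66.5 and 221, Smc4 over 113, 170 and 334, and Mki67 over 45.7, 103 and 359. P13 was the highest PDOX for each of these 4, and all 4 reached below Nu-NB. With those clusters kept and neuroblast-like cells left out instead, Top2a, Cenpf and Smc4 were above Nu-NB in all 7 PDOXs and Mki67 was not. With neuroblast-like cells kept and the pseudogene-led clusters left out, Hmgb2 was again below Nu-NB in all 7 PDOXs, at 65.6, 121 and 157 CPM.

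The first comparison asked whether brain cells around a glioblastoma carried more cell cycle RNA than those of normal brain. Across all cells 8 of 18 S members (Mcm3, Mcm6, Pcna, Tyms, Gins2, Cdt1, Dut and Rfc2) and 10 of 24 G2M members (Birc5, Cdk1, Ccna2, Ccnb2, Cenpe, Tpx2, Ube2c, Bub1, Aurkb and Plk1) were higher in all 7 PDOXs than in Nu-NB, where 22.6% of the 12580 shared genes were. Only Hmgb2 among the members was lower in all 7, where 23.9% of genes were. The median log2 difference was 1.02 over the 42 members and 0.13 over the 12295 genes tested. In edgeR's quasi-likelihood test no member and no gene (0%) passed an adjusted p of 0.01 with an absolute log2 difference of 1; at an unadjusted p under 0.05 there were 2295 genes and 5 members, and DESeq2 called 126 genes and no member. These 5 members were Gins2, a helicase cofactor (log2 difference 2.05, SE 0.72), Pcna (1.02, SE 0.37), the mitotic kinase Cdk1 (3.21, SE 1.18), the mitotic kinase Aurkb (3.27, SE 1.34) and Dut, a dUTPase (1.73, SE 0.77), with adjusted p from 0.207 to 0.265. Without the pseudogene-led clusters the median over the members was 0.73 against 0.06 over all genes, 8 S and 8 G2M members were above Nu-NB in all 7 PDOXs, where 22% of genes were, and Hmgb2 was below, where 26.4% were. Without neuroblast-like cells, left out after seeing the data, the median over the members was 1.70 against 0.12 over all genes. Then 15 S and 16 G2M members were above Nu-NB in all 7 PDOXs, where 23.5% of genes were, and no member was below, Hmgb2 included, where 24% of genes were. No gene was called by edgeR in that fit either, with 2380 at an unadjusted p under 0.05, 18 of them members. Without P8 edgeR called 4 genes, none a member. A single Nu-NB brain limits this test, and fewer cycling cells and less cell cycle RNA per cell cannot be told apart in sums. Of the lists of other cell cycle genes, none of 37 further replication genes, 41 further mitosis genes, 20 G1 regulators, 20 chromatin and tubulin genes and 12 p53 targets tested was called.

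Within myeloid-like cells 5 S members (Mcm6, Pcna, Rrm2, Cdt1 and Tipin) and 5 G2M members (Birc5, Cdk1, Ube2c, Bub1b and Plk1) were higher in all 7 PDOXs, where 13.7% of shared genes were, and Cdc6 and Hmgb2 were lower in all 7, where 26.9% of genes were. Of the members 40 passed the filter on low counts, and none of 9409 genes was called by edgeR (0%), with 1831 at an unadjusted p under 0.05, 2 of them members, and DESeq2 called 217 genes and no member. Without P8, the only PDOX sorted by FACS, edgeR called 54 genes and no member. Different clusters held these cells: 90.0% of the Nu-NB myeloid-like cells lay in a cluster that held 4.42% to 56.3% of those of the PDOXs. Another, led by H2-Ab1, Ly6c2 and H2-Aa, with Ccr2, a receptor of monocytes, and the immunoglobulin gene Igkc among its leading genes, held 82.9% of the myeloid-like cells of T101, 16.7% of those of P13 and 0.375% to 5.38% in the other PDOXs. The 35 endothelial-like cells of Nu-NB held 7 S and 7 G2M UMIs in all, too few for a fold change; 29 members passed the filter and none was called among 6294 genes tested (0%; 850 at an unadjusted p under 0.05, 1 of them a member; DESeq2 called 2 genes and no member). In astrocyte-like cells 7 members passed the filter on low counts and none was called among 5503 genes (0%; 593 at an unadjusted p under 0.05, none a member; DESeq2 called 1 gene and no member). Without P8 edgeR called 13 genes in them and without T192 4 genes, none a member, and with no filter on low counts 34, none a member.

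Whether the members marked the same cells was read from single cells. A cell with UMIs of at least 2 different S genes was called for S, and likewise for G2M. Among 364 PDOX cells called for S, 205 also held a G2M gene (56.3%, exact 95% interval 51.1 to 61.5), whereas of 6457 cells with no S gene 1281 did (19.8%). The excess was found in Nu-NB (76.2% against 8.98%) and in each of the 7 PDOXs, from 40.0% against 9.60% in P8 to 72.2% against 15.6% in T233. Without the pseudogene-led clusters the shares were 55.5% (152 of 274) against 18.6% in the PDOXs together, and T101 fell to 27.3% (3 of 11, exact interval 6.02 to 60.97) against 20.7%. In some groups of few cells no excess was seen. None of 8 astrocyte-like PDOX cells called for S held a G2M gene (exact interval 0 to 36.9), against 10.1% of those with no S gene. In the pseudogene-led clusters of T16 the shares were 37.5% (9 of 24, exact interval 18.8 to 59.4) and 44.7%. These intervals are too wide to exclude an excess.

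Single members differed in how tightly they kept to such cells. In the 9382 thinned cells of all 9 samples Rrm2, the small subunit of ribonucleotide reductase, was detected in 0.064% of cells with no other member and in 4.81% of cells with at least 2 others. Kif11 (0.080% and 5.29%), a spindle motor, Bub1b (0.032% and 2.08%) and Ccnb1 (0.032% and 1.78%), the mitotic cyclin B1, behaved alike. The S members Uhrf1 (0.064% and 2.71%), which maintains DNA methylation, and Rrm2 had the widest gaps of their group. At the other end Tipin was detected in 1.72% of cells with no other member and 3.83% with at least 2, and Rfc2 in 1.83% and 4.53%. Smc4 (5.09% and 30.03%), Pcna (3.25% and 11.2%) and Hmgb2 (2.32% and 13.6%) were also common in cells with no other member. Of 426 cells with Pcna 136 (31.9%) held at least 2 other members, of 538 with Top2a 381 (70.8%). Without the pseudogene-led clusters the shares were 26.3% (99 of 377) for Pcna and 67.0% (260 of 388) for Top2a. Rrm2 was then detected in 0.068% of cells with no other member and 5.60% with at least 2, Tipin in 1.70% and 4.24%, and Rfc2 in 1.80% and 3.81%.

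**Figure D2:**
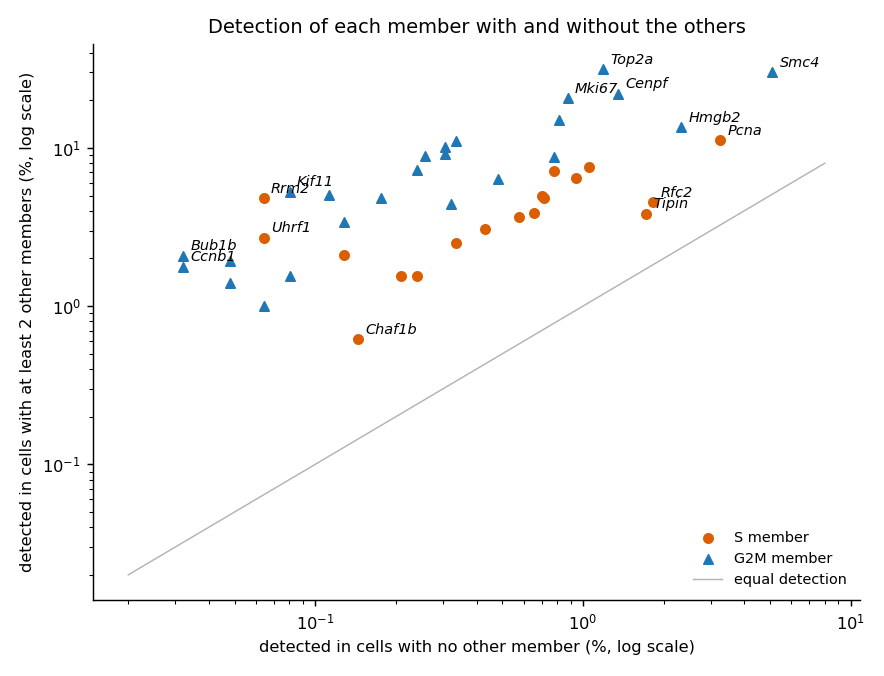
Each point is a member: the share of cells of all 9 samples, at 500 UMIs per cell, with a UMI of it among cells with no other member (x axis) and among cells with at least 2 other members (y axis), both in percent on log axes. All 42 points lie above the line of equal detection, the G2M members (triangles) mostly farther from it than the S members (circles); Tipin and Rfc2 lie nearest to it.

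At equal depth 2.28% of Nu-NB cells were called for S (21 of 920, exact interval 1.42 to 3.47) and 2.93% for G2M (27 of 920, 1.94 to 4.24). In the 7 PDOXs the S share was 4.82% ± 2.31 (SD, n = 7), lowest in T192 (2.63%), with a median of 4.39% and highest in P3 (9.32%). The G2M share was 9.13% ± 3.68 (SD, n = 7), lowest in P8 (3.32%), with a median of 8.97% and highest in P13 (13.3%). All 7 PDOXs lay above Nu-NB in both shares. The make-up of the samples moved with these shares: astrocyte-like cells were 48.2% of the kept cells of Nu-NB and 0.386% to 29.3% of those of the PDOXs, and OPC-like cells 0.113% of Nu-NB but 21.9% of P8 and 10.7% of T16. The part of the make-up in the all-cell shares and levels was not tested. The differences of 2.53 (S) and 6.20 (G2M) percentage points gave p = 0.25 and p = 0.125 (exact permutation test, two-sided), where 0.125 is the smallest p that 7 samples against 1 allow. Neuroblast-like cells made up 25 of the 920 Nu-NB cells and held 11 of its 21 S calls and 15 of its 27 G2M calls. Without neuroblast-like cells in any sample, an alternative added after seeing the data, Nu-NB stood at 1.12% for S (10 of 895, exact interval 0.537 to 2.05) and 1.34% for G2M (12 of 895, 0.695 to 2.33), and the PDOXs at 4.76% ± 2.29 and 9.02% ± 3.63 (SD, n = 7). The differences were then 3.64 and 7.68 percentage points (exact permutation p = 0.25 and 0.125). P8, sorted by FACS like Nu-NB, was nearest to it for G2M (3.32%), and the 6 MACS-sorted PDOXs ran from 6.60% to 13.3%; sort and share moved together and their relation was not tested.

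**Figure D3:**
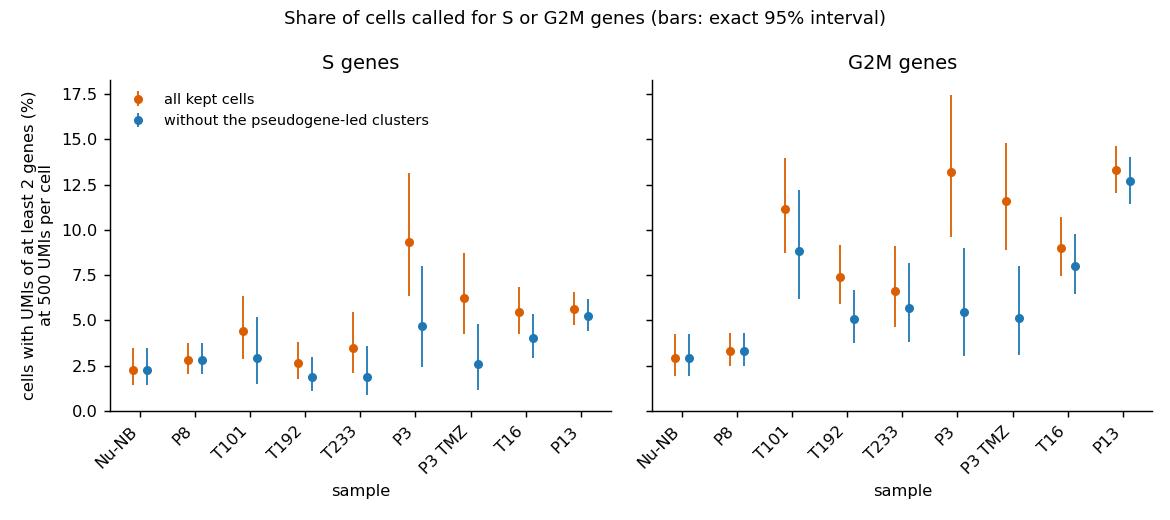
Percent of cells with UMIs of at least 2 S genes (left) or 2 G2M genes (right) in each of the 9 samples at 500 UMIs per cell, with exact 95% intervals that cover counting error only. Without the pseudogene-led clusters (blue) P3 falls from 9.32% to 4.67% for S and from 13.2% to 5.45% for G2M, while P13 stays at 12.7% for G2M.

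Without the pseudogene-led clusters the PDOX shares were 3.35% ± 1.32 for S and 7.01% ± 3.12 for G2M (SD, n = 7). For S, T192 (1.87%) and T233 (1.90%) then lay below Nu-NB; for G2M all 7 PDOXs stayed above it, from 3.32% to 12.7%. The differences from Nu-NB shrank to 1.07 and 4.08 percentage points (exact permutation p = 0.62 and 0.25).

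The larger of those clusters was led by Gm17511, Gm2178, Gm11983 and Hist1h4c, with the neuronal Tubb3 and Gap43 among its leading genes, and the other by Cnot2, Rab3ip, Cand1, Frs2 and Yeats4, with Postn, the receptor Egfr and the p53 regulator Mdm2. Together they made up 46.1% of the kept cells of T101, 28.9% of P3, 26.9% of P3 TMZ and 3.32% to 11.3% of T16, T192, T233 and P13. Of PDOX cells called for S 24.7% (90 of 364) and of those called for G2M 20.1% (149 of 740) lay in them. Top2a stood at 590 to 1565 CPM there against 73.0 to 421 CPM in the other cells of the same 6 PDOXs, and Cenpf at 415 to 4598 against 32.4 to 221. In T16 the clusters were 9.60% of cells and held 72.2% of the Cenpf UMIs. Mki67, at 0 to 74.0 CPM against 45.7 to 359, and Hmgb2, at 0 to 42.1 against 65.6 to 157, went the other way in each of the 6, as did Cenpa (0 to 11.2 against 16.2 to 75.9), the centromeric histone. Counted over all members, 7 of 18 S and 9 of 24 G2M members were higher there in all 6 PDOXs, where 14.7% of shared genes were, and 2 S members (Mcm2, Uhrf1) and 4 G2M members (Mki67, Cenpa, Hmgb2, Cks2) were lower in all 6, where 33.4% of genes were. The members took no part in the clustering, but the clusters were built from the same cells, and no test is given. Whether reads of human tumour cells reached mouse genes in these cells was not tested.

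The shares were then taken by cell class. Clusters that got no single class name (mixed or unnamed) are not among the classes below. Of the 740 PDOX cells called for G2M, mixed clusters held 59 and unnamed clusters 59 (7.97% each). Of the 364 called for S they held 17 (4.67%) and 13 (3.57%). Astrocyte-like cells served as a low reference, on the untested assumption that few of them divide. Their summed G2M level ran from 89.4 to 758 CPM in 6 PDOXs and was 132 CPM in Nu-NB. Pooled over the PDOXs 0.559% of astrocyte-like cells were called for S (8 of 1431) and 1.26% for G2M (18 of 1431). The corresponding shares were 3.69% and 9.11% in myeloid-like cells (2383 cells), 3.23% and 6.98% in endothelial-like cells (1333), 6.25% and 17.3% in mural-like cells, the pericytes and smooth muscle cells of vessels (352), and 10.8% and 9.09% in OPC-like cells (594). Neuroblast-like cells had the highest shares of the named classes with 20 or more cells in a sample: 44.0% for S and 60.0% for G2M in Nu-NB (25 cells) and 30.4% and 28.3% in P13 (46 cells). The OPC-like S and G2M shares were 7.31% and 6.79% in P8 (383 cells), 11.1% and 3.70% in T101 (27 cells) and 19.0% and 16.8% in T16 (137 cells). By summed level the G2M members were above the S members in OPC-like cells of P8 (1283 against 768 CPM), T16 (2067 against 1455 CPM), P13 (4452 against 1113 CPM) and narrowly T101 (691 against 663 CPM). They were below them in T192 (283 against 1204 CPM) and T233 (964 against 2035 CPM), and outside P8 and T16 each sum held 4 to 80 UMIs. Between the PDOXs the mural-like G2M share was 6.78% in P8, 16.7% in T16 and 22.1% in P13. The pooled mural-like S share rested on P13, which held 18 of the 22 cells called for S and 208 of the 352 cells.

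**Figure D4:**
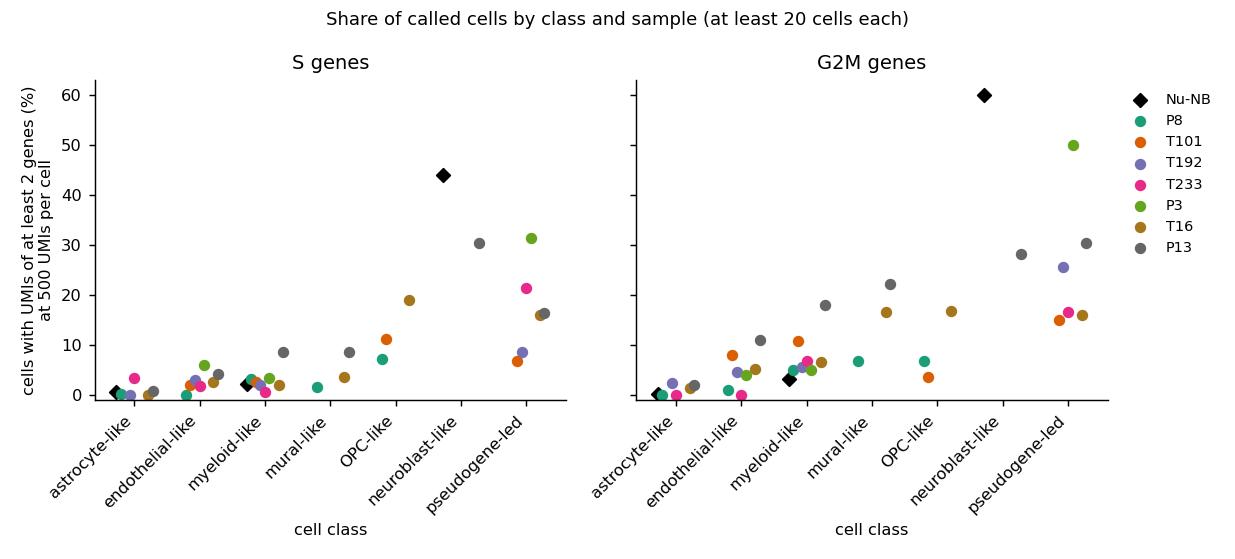
Percent of cells called for S (left) and G2M (right) in each class, 1 point per sample with at least 20 cells at 500 UMIs per cell; P3 TMZ is left out. Astrocyte-like points lie between 0% and 3.45%, neuroblast-like points between 28.3% and 60.0%, and the P13 point lies highest among myeloid-like cells in both panels.

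In myeloid-like cells the G2M share was 8.30% ± 4.72 (SD, n = 7): 18.1% in P13, 10.8% in T101 and 5.08% to 6.84% in the other 5 PDOXs, against 3.16% in Nu-NB. All 7 PDOXs lay above Nu-NB, by 5.13 percentage points on average (exact permutation p = 0.25). The S share was 3.21% ± 2.57, from 0.651% in T233 to 8.66% in P13, and Nu-NB at 2.22% lay inside that range (difference 0.995 points, p = 0.62, exact permutation test). The difference rested on P13: without it, it was 0.0865 points (exact permutation p = 1). In P13, whose cells were the deepest before thinning, the myeloid-like sum of G2M members was 3258 CPM, against 684 to 1529 in the other PDOXs and 952 in Nu-NB.

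Endothelial-like cells had a G2M share of 4.85% ± 3.81 (SD, n = 7), from 0% in T233 (0 of 58 cells; a count of 0 is compatible with up to 5.17%) to 11.0% in P13. Within every PDOX it was below the myeloid-like share, by 1.08 (P3) to 7.03 (P13) percentage points. A two-sided exact sign-flip test of the mean difference, -3.45 points, gave p = 0.0156, the smallest that 7 pairs allow. Its adjusted p over the 6 class comparisons was 0.0938, so it did not pass. The comparisons with 5 PDOXs cannot go below 0.0625 in this test. Passing thus needed the S comparison of the same classes to reach its smallest p too. Astrocyte-like cells were below myeloid-like cells in G2M share in 5 of 5 PDOXs (mean difference -7.29 points, exact p = 0.0625, the smallest possible, adjusted p = 0.188) and below endothelial-like cells in 4 of 5 (exact sign-flip p = 0.125, adjusted p = 0.25), where the mean difference of 3.23 points was 1.78 without P13. For the S shares the mean differences were -0.420 points between endothelial-like and myeloid-like cells (4 PDOXs higher, 3 lower, exact p = 0.688, adjusted p = 0.688), -2.37 between astrocyte-like and myeloid-like cells (4 of 5 lower, exact p = 0.25, adjusted p = 0.3; -1.02 without P13 and -3.66 without T233, whose astrocyte-like share was 1 cell of 29) and 1.40 between endothelial-like and astrocyte-like cells (3 of 5 higher, exact p = 0.25, adjusted p = 0.3; 2.18 without T233 and 0.935 without P13). The ratio of S to G2M UMIs was higher in endothelial-like than in myeloid-like cells in 6 of 7 PDOXs, by 0.41 on the log2 scale (exact sign-flip p = 0.0312); it rested on few UMIs in P8 (9 S and 8 G2M), and without P8 the mean was 0.18. Leaving out P8, T192, T233, P3, T16 or P13 raised the exact p to 0.0625, where 6 pairs allow 0.0312.

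Endothelial-like cells fell into a pair of clusters. In the larger, led by Cxcl12, Ly6c1 and the transporter Slco1a4 and holding 814 thinned PDOX cells, 1.35% were called for S and 2.83% for G2M. In the other, led by Ctla2a, Cd93, the VEGF receptor Kdr and the tip cell peptide Apln, and holding 519 cells, 6.17% and 13.5% were. Without P13 the S and G2M shares were 1.46% and 2.70% in the first and 4.36% and 6.98% in the second, where T16 gave 204 of the 344 cells. Both shares were higher in the second cluster in T101, T192, T16 and P13. In P3 its G2M share was higher but its S share lower (5.13% of 78 cells against 9.09% of 22). In P8 none of its 20 cells was called, and T233 had 2 cells in it. Median depth before thinning was 825 UMIs in the first and 1495 in the second; its part in the difference was not tested.

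Gene by gene, 14 of the 42 members passed the filter on low counts in the comparison of endothelial-like with myeloid-like sums within the 7 PDOXs. Of these 2 were higher in endothelial-like cells, where 26.8% of 4713 genes tested were, and 3 lower, where 26.8% were. Dut stood at 17.7, 40.7 and 103 CPM (lowest, median, highest) in endothelial-like cells against 7.05, 13.9 and 49.7 in myeloid-like cells, and was higher by 0.97 (log2, SE 0.27, edgeR adjusted p = 0.00631). Tipin, at 26.5, 67.8 and 105 against 20.8, 32.6 and 44.9 CPM, was higher by 0.79 (SE 0.27, edgeR adjusted p = 0.0223). The ranges overlapped for both. Rfc2 fell by 0.97 (SE 0.28, edgeR adjusted p = 0.0079), with 0, 33.6 and 78.2 CPM against 40.2, 48.3 and 93.6. Mki67, with 12.0, 88.3 and 355 CPM against 59.9, 119 and 519, was lower by 0.73 (SE 0.22, edgeR adjusted p = 0.0117). Cenpe, with 0, 38.2 and 252 CPM against 56.4, 69.5 and 296, was lower by 1.04 (SE 0.32, edgeR adjusted p = 0.0116). Mki67 and Cenpe were not called without the PDOX block (edgeR adjusted p = 0.289 and 0.323). Without P13 neither Dut nor Tipin passed the filter and 3 members were called, and Tipin was not called without T101, T192 or T233 (edgeR adjusted p from 0.0654 to 0.077). DESeq2 called Dut but not Tipin (adjusted p = 0.0621) as higher, and Rfc2, Mki67, Cenpe and in addition Cenpf (-0.99, DESeq2 adjusted p = 0.0291) as lower. With no filter on low counts 9 of 42 were called, 3 higher (17.3% of 12566 genes) and 6 lower (21.6%). Of 13 G1 regulators tested 6 were higher, led by the CDK inhibitors Cdkn2b (3.85) and Cdkn1c (3.41), and 5 were lower, led by the antiproliferative Btg2 (-2.11) and Btg1 (-1.76). Of 17 chromatin and tubulin genes tested 9 were higher, led by Tubb4b (1.55) and H2afv (1.49), and 1, Tuba1c, lower (-0.74). Of 8 further mitosis genes 1 was called, Lbr (1.86), a lamin B receptor of the nuclear envelope, and of 7 replication genes none (edgeR). Of 4 p53 targets Cdkn1a was higher (1.04) and Ccng1 lower (-0.87).

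Astrocyte-like cells held less of nearly every member than myeloid-like cells of the same 6 PDOXs. Of 13 members tested 11 were lower, where 35.5% of 5832 genes were, and none was higher, where 20.4% were; a gene that passed the filter through the myeloid-like sums had to be higher there. With no filter 39 of 42 were lower, where 27% of 12567 genes were (18.6% were higher), the exceptions being Rrm1, Tipin and Ccna2. The median log2 difference was then -2.37 over the 42 members and -0.25 over all genes. Myeloid-like cells of the 7 PDOXs held 67.1, 129 and 533 CPM (lowest, median, highest) of Top2a and 86.02, 105 and 175 CPM of Pcna. Mki67 stood at 0, 12.5 and 89.5 CPM (lowest, median, highest) in astrocyte-like cells and fell by 3.02 on the log2 scale (SE 0.43, edgeR adjusted p = 1.61e-06). Cenpe, at 0, 14.7 and 36.03 CPM, below every myeloid-like value, fell by 3.39 (SE 0.38). Top2a (0, 18.5 and 116 CPM) fell by 2.76 (SE 0.41) and Kif20b (0, 8.58 and 36.9 CPM), a kinesin of cytokinesis, by 2.36 (SE 0.43). Hmgb2 (31.05, 35.4 and 48.6 CPM) fell by 1.87 (SE 0.29), its highest astrocyte-like value lying below the lowest myeloid-like value of 54.7 CPM. Cenpf (0, 25.4 and 82.6 CPM) fell by 2.07 (SE 0.44) and Smc4 (0, 70.9 and 168 CPM) by 1.42 (SE 0.30). Among the S members Tyms (0, 2.63 and 10.8 CPM) fell by 2.65 (SE 0.42), below every myeloid-like value. Mcm3 (4.86, 14.6 and 36.03 CPM) fell by 2.13 (SE 0.37), Pcna (24.3, 43.2 and 79.0 CPM) by 1.55 (SE 0.28) and Rfc2 (0, 22.8 and 67.1 CPM) by 1.39 (SE 0.33). Cenpf was not called without P13 (edgeR adjusted p = 0.0536). Of 9 further replication genes 7 were lower, led by Lig1 (-2.48) and Hells (-2.09), and of 9 further mitosis genes 7, led by Hmmr (-3.14) and Incenp (-3.05). Of 12 G1 regulators 6 were lower, led by Btg2 (-3.34) and Cdkn1a (-2.51), and 3 higher, Ccnd2 (1.07), Rb1 (0.81) and Rbl2 (0.76). Of 16 chromatin and tubulin genes 9 were lower, led by Tuba1c (-3.74), and 3 higher, led by Cbx5 (1.36), and of 4 p53 targets Cdkn1a and Bax (-0.90) were lower.

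What else cells with cell cycle UMIs expressed was asked within a class, comparing thinned cells that held at least 2 members with cells that held none in the same PDOX. The members chose the cells and are not read. In myeloid-like cells (8 to 148 cells with and 76 to 438 without in each of 7 PDOXs) 6.4% of 641 genes tested were called, 3.74% higher and 2.65% lower, members included; without members 37 were called, 20 higher and 17 lower. All 6 chromatin and tubulin genes tested were higher, among them the tubulins Tuba1b (log2 difference 1.42, SE 0.25) and Tubb5 (1.34, SE 0.26), the chromatin proteins Nucks1 (1.21, SE 0.24), Dek (1.17, SE 0.20) and Ptma (0.81, SE 0.20). The structural maintenance genes Smc6 (1.09) and Smc1a (1.03), Fam111a (0.91), Anp32b (0.89), the histone chaperone Supt16 (0.85) and Gm4204 (1.23) were the other leading genes. Lower in these cells were Apoe (-0.64), Lyz2 (-0.68), Fcgr3 (-0.73), Ftl1 (-0.78), Ctsh (-0.87) and Slc11a1 (-0.98), genes of lipid transport, lysozyme, Fc receptor, iron storage and lysosome in macrophages, together with Btg1 (-1.0), Glul (-1.03), Ndufa6 (-1.11) and Ttr (-0.70). Adjusted p ran up to 0.0461 for these genes in edgeR. Without the PDOX block 3 non-members were called, and DESeq2 called 14; with no filter on low counts 173 were (1.75% of 11905 genes with members, 0.664% higher and 1.08% lower). Without P13 the count was 16 and without P8 19. Median depth before thinning was higher in the cells with members in 6 of 7 PDOXs. The cells with members were also spread unevenly over the myeloid-like clusters. They were 20% (104 of 520) of the PDOX cells of a cluster led by P2ry12 and Gpr34 but 6.21% (40 of 644) of one led by Cd74 and H2-Aa, with Apoe and Lyz2 among its leading genes. Of those cells P13 gave 307 of the 520 in the first cluster and 13 of the 644 in the second, and without P13 the shares were 12.2% (26 of 213) and 5.39% (34 of 631). The first cluster had the higher share in each of the other 6 PDOXs and the lower one in P13 (25.4% against 6 of 13 cells). The part of depth and of the clusters in these differences was not tested.

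In endothelial-like cells (10 to 87 cells with and 66 to 302 without in 5 PDOXs) 9% of 578 genes were called, 3.46% higher and 5.54% lower, 51 of them non-members. Of 7 chromatin and tubulin genes Tuba1b (1.21, SE 0.34), Ran (1.02, SE 0.32) and Nucks1 (0.97, SE 0.31) were higher and none lower. The leading genes also held the nucleolar Npm1 (1.51) and Ncl (0.93), Nop10 (1.23), Rplp0 (1.06), Ndufb9 (1.21), Atpif1 (1.16) and Rpsa-ps10 (1.24). Lower were Cxcl12 (-2.26), a chemokine of resting capillary endothelium, Sparcl1 (-1.49), the endothelial transcription factor Erg (-1.32), the sphingosine receptor S1pr1 (-1.29), Plcb4 (-1.34), Hspb1 (-1.34), Sdpr (-1.34), Mt1 (-1.32), Serpine2 (-1.29) and 9430020K01Rik (-1.20). Adjusted p ran up to 0.044 in edgeR. Without the PDOX block no non-member was called by edgeR, with 62 of 578 genes at an unadjusted p under 0.05, and with it DESeq2 called 12. With no filter on low counts 79 were called (0.94% of 11166 genes with members, 0.358% higher and 0.582% lower). The count was 8 without T101, 12 without P13, 17 without T16 and 32 without T192. Of the 153 endothelial-like PDOX cells with at least 2 members, 107 lay in the cluster led by Ctla2a (20.6% of its 519 cells) and 46 in the cluster led by Cxcl12 (5.65% of its 814 cells), which has Sdpr among its leading genes; without P13 the shares were 11.9% (41 of 344) and 5.198% (25 of 481). The comparison thus set the clusters against each other in part, and their part in it was not tested. In P13, which gave 87 of the cells, median depth before thinning was 3611 UMIs with and 1000 UMIs without members, and its part in these differences was not tested.

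The last comparison set P3 beside P3 after TMZ, with 1 sample each and therefore no test. Over all cells 9.32% were called for S in P3 (29 of 311, exact interval 6.33 to 13.1) and 6.21% in P3 TMZ (30 of 483, 4.23 to 8.75), and 13.2% (41 of 311, 9.63 to 17.5) and 11.6% (56 of 483, 8.88 to 14.8) for G2M. In the pseudogene-led clusters 31.5% (17 of 54, exact interval 19.5 to 45.6) of P3 cells and 15.8% (21 of 133, 10.05 to 23.1) of P3 TMZ cells were called for S. For G2M the shares there were 50.0% (27 of 54, exact interval 36.1 to 63.9) and 28.6% (38 of 133, 21.1 to 37.0). These intervals cover counting error only and say nothing of the spread between animals. Without the pseudogene-led clusters the shares were 4.67% and 2.57% for S and 5.45% and 5.14% for G2M. Myeloid-like cells had 3.39% and 2.97% for S and 5.08% and 6.36% for G2M. Endothelial-like cells had 6% (6 of 100) and 1.32% (1 of 76) for S and 4% and 1.32% (4 and 1 cells) for G2M. Summed over the members, the endothelial-like level was 412 CPM in P3 (82 UMIs, exact Poisson interval 328 to 511) and 299 CPM in P3 TMZ (37 UMIs, 210.2 to 411) for S. For G2M it was 788 CPM (157 UMIs, exact Poisson interval 670.0 to 922) and 339 CPM (42 UMIs, 244 to 458). The Poisson intervals take each UMI as independent, although UMIs of the same cell come together, and these sums were not thinned. They are therefore too narrow, and their separation is no test of TMZ.

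**Figure D5:**
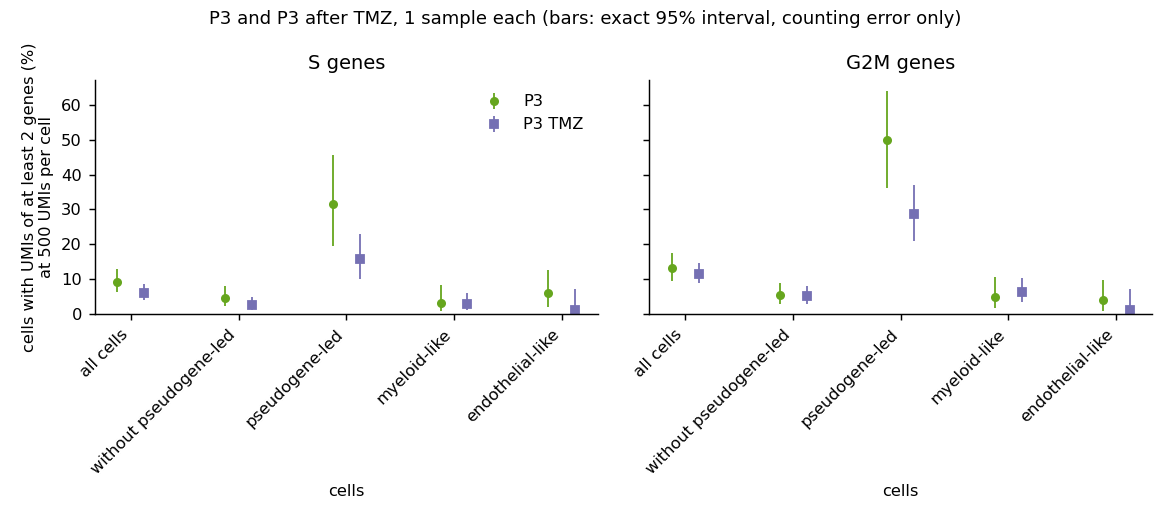
Percent of cells called for S (left) and G2M (right) in P3 and P3 TMZ, 1 sample each, by group of cells, with exact 95% intervals for counting error only. The intervals overlap in every group in the S panel. In the pseudogene-led clusters P3 stands at 50.0% and P3 TMZ at 28.6% for G2M, and there the intervals overlap too.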

How the data were processed

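Mouse cells of 9 samples were profiled by Drop-seq. The deposited values are raw counts of UMIs per gene and cell barcode; the authors demultiplexed reads with bcl2fastq 2.0 and aligned them with STAR, and the submitters' processing notes name the builds GRCm38 and mm10. Barcodes under 200 genes or over 30% mitochondrial UMIs were dropped, and the 5% of cells per sample with the highest doublet score (scanpy 1.11.5) were left out. Cells were clustered on 2000 variable genes without the members, other cell cycle lists, histone and mitochondrial genes, and clusters were called X-like from marker lists; clusters with over 20% pseudogene UMIs were called pseudogene-led. Rebuilt names may differ from those of the study. Shares were taken after thinning to 500 UMIs, a cell being called with UMIs of at least 2 genes of a group; 14.5% of PDOX cells held exactly 1 S gene and 14.3% exactly 1 G2M gene. Shares were compared by exact permutation tests (PDOX against Nu-NB) or exact sign-flip tests within PDOXs, adjusted over 6 comparisons (scipy 1.17.1).

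UMIs summed over cells of a class (at least 10 cells against Nu-NB, 20 between classes within PDOXs, and 5 on either side for cells with against cells without members) were tested by edgeR 4.0.16 (quasi-likelihood, TMM, filterByExpr, R 4.3.3) across all genes listed in every table, with Benjamini-Hochberg adjusted p of 0.01 and an absolute log2 difference of 1 against Nu-NB, and 0.05 within PDOXs with the PDOX as block, since class sums of the same animal are paired. The script was tested on simulated data. Alternatives were DESeq2 1.42.0, RLE size factors, no filter, other depths, call rules, doublet and cluster settings, no block, no neuroblast-like cells, and leaving out each PDOX. The labels number no replicates across groups, and p-values measure the spread between these samples. Intervals are exact 95% binomial intervals and cover counting error only.

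The members, lists and tests were chosen with earlier results of these data known. Values are given for the 5 S and 5 G2M members of highest mean CPM and for members called in a comparison, up to 5 called genes per list and direction, and the 10 leading non-members in each direction between cells with and without member UMIs. Cluster leading genes were chosen after their values were seen. Members take reads at the 3' end, and reads shared with processed pseudogenes were not resolved.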

Additional observations from a re-analysis of the deposited data

Results flagged for a closer look

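Of 24 groups of PDOX values tested for a sample far from the others, 5 were marked, where chance marks about 1 in 20. In 4 of them the sample was P13, whose cells were also the deepest (median 1154 UMIs against 406.5 to 729 in the other PDOXs); the part of depth was not tested. The S share of P13 myeloid-like cells was 8.66%, against 0.651% to 3.39% in the other PDOXs. Mki67 in P13 stood at 351 CPM over all cells, against 44.3 to 125. The sum of S members in P13 was 927 CPM, against 406 to 628, and the sum of G2M members 2859 CPM, against 761 to 1511. In T233 the S share of astrocyte-like cells was 3.45%, a single cell of 29, against 0 to 0.868% in the other 4 PDOXs.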

How the results depend on the processing

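The S share of myeloid-like cells relative to Nu-NB changed sign at 300 UMIs (-0.00102 points) and with at least 3 genes per call (-0.272 points). The S share of endothelial-like against myeloid-like cells changed sign at 800 UMIs (0.572 points) and, with 1 PDOX left out, ran from -0.925 to 0.265 points, turning positive without P8 (0.0373) or P13. The log2 S to G2M balance was 0.35 with no doublets left out (exact p = 0.0625) and 0.18 to 0.50 with 1 PDOX left out. The 5 members called between endothelial-like and myeloid-like cells were 9 with no filter on low counts, 3 with no replicate block and 3 (without P13) to 7 with 1 PDOX left out. The 11 members between astrocyte-like and myeloid-like cells were 39 with no filter and 7 (without P13) to 19 (without T16) with 1 PDOX left out, 17 without T101. The 37 non-members between myeloid-like cells with and without member UMIs were 14 by DESeq2, 173 with no filter, 3 with no replicate block, 15 at 300 UMIs and 16 to 36 with 1 PDOX left out. The 51 in endothelial-like cells were 12 by DESeq2, 79 with no filter, 0 with no replicate block, 11 at 300 UMIs and 8 to 58 with 1 PDOX left out. The fits without block of these last comparisons, and those without neuroblast-like cells, were chosen after seeing the data. The cause of these changes was not tested. Leaving out P8 is also the fit of MACS-sorted PDOXs alone. The endothelial-like share against Nu-NB was not run, since Nu-NB held 11 such cells at 500 UMIs. Depth limits single cells: at 500 UMIs a member of low level is rarely seen, and an uncalled cell may be cycling.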
